A study of Mus musculus with 18 samples.

Results

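The genes described here are 49 non-collagen genes of the extracellular matrix and of its remodelling in mouse skeletal muscle. They were taken by symbol from a given list of matrix genes, which was drawn up with earlier results of these data known. All 49 were among the 12558 genes of the deposited table, and all 49 were among the 12524 genes tested. They were ordered into 7 groups by role: 11 genes of elastic fibres and microfibrils, 6 proteoglycans, 7 adhesive and matricellular glycoproteins, 8 basement membrane genes, 6 genes of cross-linking and collagen processing, 7 proteases and inhibitors, and 4 genes rich in tendon.

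The series concerns NURR1, an orphan nuclear receptor encoded by Nr4a2, and its activation in muscle. RNA from skeletal muscle was read as single-end reads of 50 bases from TRIzol extracts. There were 6 groups of 3 libraries. Wild-type mice received normal chow (WT-NC), chow with AQ (WT-NC-AQ), a high-fat diet, HFD (WT-HFD) or the high-fat diet with AQ (WT-HFD-AQ), each for 10 weeks, with AQ given in drinking water. The labels call AQ a drug and do not spell it out. The other groups were Nurr1 transgenic mice (HFD-Nurr1-mTg) and wild-type mice labelled as their transgenic control (HFD-WT), both on the high-fat diet for 10 weeks and both without AQ. No source used here gives the promoter of the transgene, the muscle sampled, sex or age. The labels number biological replicates but do not say that each is a separate mouse, so the p-values measure the spread between these libraries.

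The extracellular matrix of muscle is made mainly by fibroblasts that lie between the fibres, while the basement membrane wraps each fibre and each capillary. Fibrillin microfibrils form a scaffold on which elastin is laid down, lysyl oxidases cross-link elastin and collagen, and proteoglycans and adhesive glycoproteins join fibrils, growth factors and cells. Metalloproteinases cut these proteins and the TIMP proteins inhibit them. In obesity, muscle is known to gain matrix.

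The libraries held 10404895 to 16082994 reads recovered from the table, and 3 reads were worth 0.191 to 0.277 CPM, the scaled read count used throughout. Nr4a2 lay between 18.8 and 30.1 CPM in the transgenic libraries and between 0.828 and 4.79 CPM in all others, as the labels state. Markers of muscle fibres were present in every library, with a summed level of 115380 to 162946 CPM over 8 genes. Single libraries stood apart for the matrix genes. HFD-WT replicate 1 was the highest of its group for 45 of 49 members and the highest of all 18 libraries for 23, and WT-HFD replicate 1 was the highest of its group for 41. HFD-Nurr1-mTg replicate 1 was the highest of its group for 36. WT-NC-AQ replicate 1 was the lowest of its group for 35 and WT-HFD replicate 3 for 29. The main counts and medians of the members and role groups that rest on these libraries are also given without them. Those of other gene lists and of markers are given with all libraries only.

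**Figure D1:**
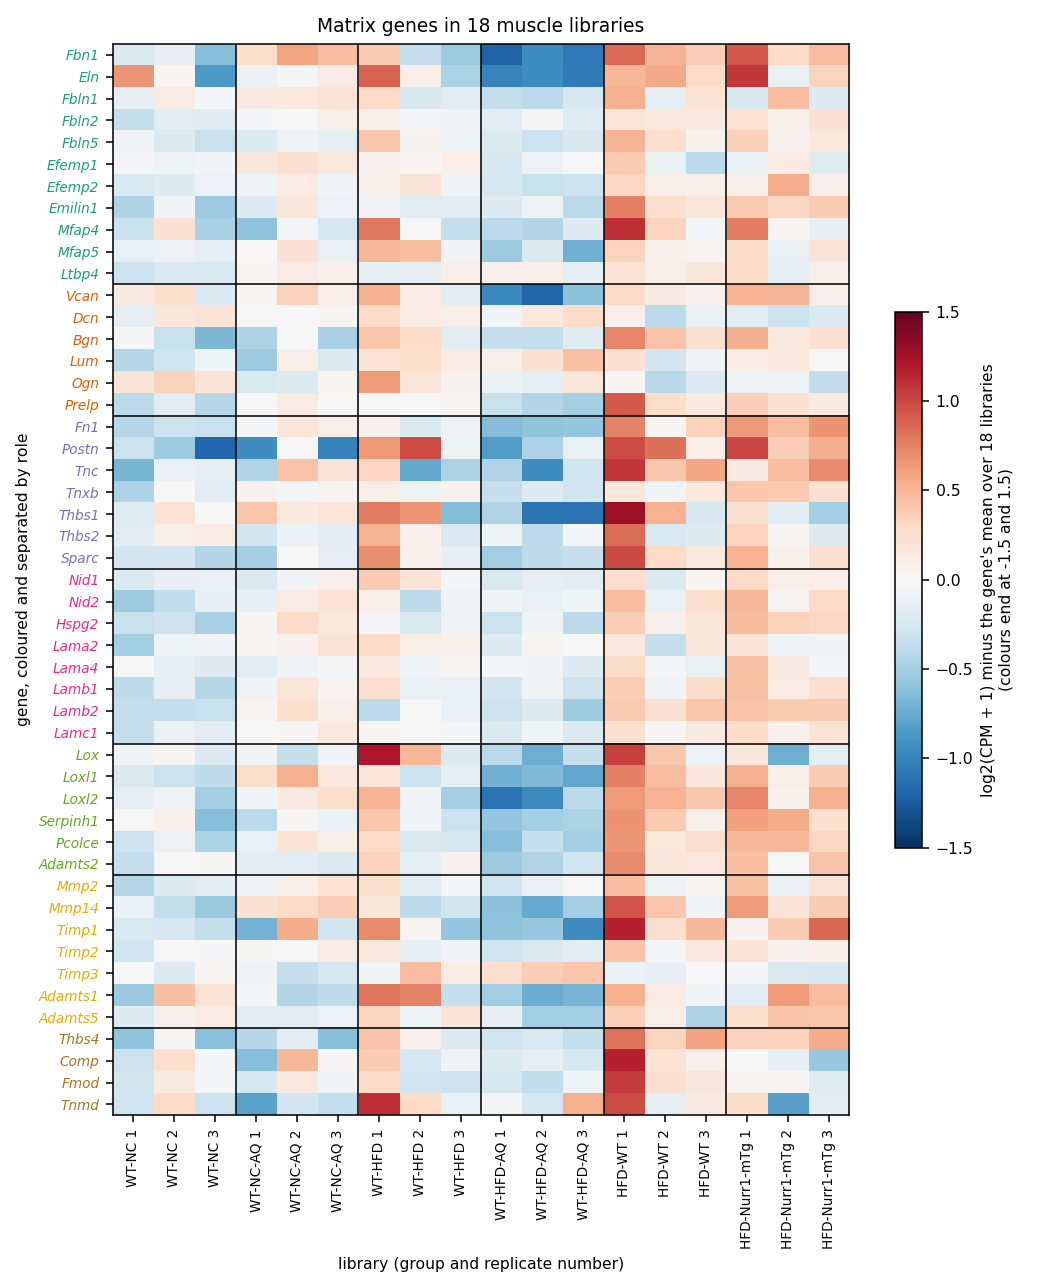
Level of each of the 49 genes (rows, by role) in each of the 18 libraries (columns, by group), as the log2(CPM + 1) deviation from the gene's mean over all libraries. The WT-HFD-AQ columns are low for most genes, with mean deviations of -0.37, -0.35 and -0.31, and HFD-WT replicate 1 is the highest at 0.59.

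AQ was compared with no AQ in each diet, and the difference between the diets was tested directly. On the high-fat diet 45 of 49 members lay lower with AQ, against 49.5% of all genes, with a median log2 fold change of -0.37 against 0.00 over all genes. The median was -0.25 with 42 lower without WT-HFD replicate 1, and -0.46 with 45 lower without WT-HFD replicate 3. On chow 37 of 49 lay higher with AQ, against 48.3% of all genes, with a median of 0.16 against -0.01, and without WT-NC-AQ replicate 1 40 lay higher with a median of 0.20. These comparisons share no library: 34 of 49 members were lower on the high-fat diet and higher on chow, which was so for 24.8% of all genes, and 1 member, Timp3, showed the opposite, which was so for 26.9%. Groups did not overlap for 26 members lower with AQ on the high-fat diet (8.91% of all genes) and for 19 higher with AQ on chow (10.9%).

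Few of these shifts passed the test gene by gene. The test was limma on log2(CPM + 1), and a call means a Benjamini-Hochberg adjusted p under 0.05 over all genes tested. AQ on the high-fat diet changed 1 member, Vcan, which fell, where 0.0479% of all genes were called and 0.0319% called lower. AQ on chow changed 2 members, Hspg2 and Lamb2, which rose, where 1.11% were called and 0.838% called higher. The effect of AQ differed between the diets for 7 members, all lower on the high-fat diet relative to chow, where 0.711% of all genes were called and 0.583% called lower: Fbn1, Mfap5, Vcan, Fn1, Hspg2, Lamb2 and Loxl1. The difference was below 0 for 44 of 49 members (48.7% of all genes), and for 42 without WT-HFD replicate 1. In a fit of only the groups compared, Fbn1, Fn1 and Loxl1 were called, Mfap5, Vcan, Hspg2 and Lamb2 were not (limma adjusted p = 0.0628, 0.0613, 0.0554 and 0.0613), and Prelp and Mmp14 were. Between the diets in AQ-treated mice, 14 members were called (10.6% of all genes), 12 lower on the high-fat diet (5.68%) and 2 higher (4.89%). There 40 of 49 members lay lower on the high-fat diet (50.4% of all genes), and groups did not overlap for 25 lower members (17.4%) and 2 higher ones (15.8%). This last comparison shares its libraries with the others, so its calls are not a separate line of evidence.

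**Figure D2:**
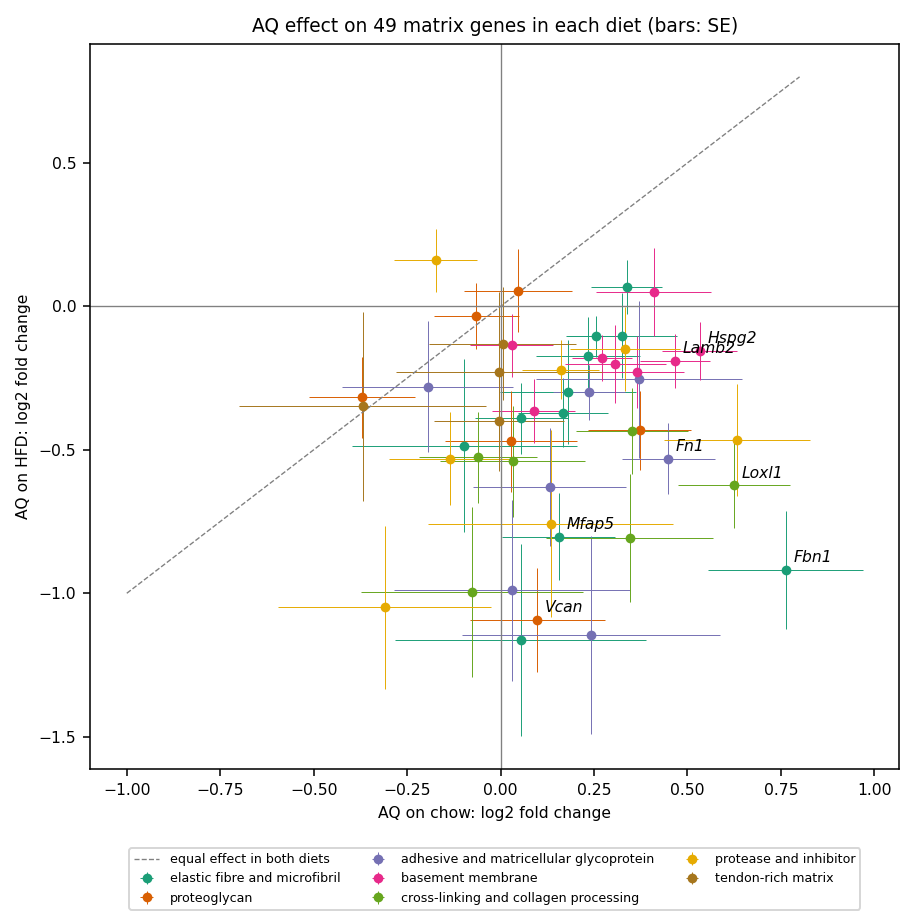
Log2 fold change with AQ on chow (horizontal) and on the high-fat diet (vertical) for each of the 49 genes, with bars of 1 SE and colours by role. The named genes are the 7 whose effect of AQ differed between the diets, and all of them lie right of 0 on chow and under 0 on the high-fat diet, below the dashed line of equal effect.

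Scaling bears on the split of calls. With plain library totals in place of the deposited scaling, the calls of the difference between diets went from 16 higher and 73 lower to 13 and 19, with 2 members left, Fbn1 and Loxl1. The calls between diets with AQ went from 613 higher and 711 lower to 833 and 375, with 9 members left. On chow the calls went from 105 higher and 34 lower to 28 and 15, and on the high-fat diet from 2 and 4 to 4 and 2, with no member called in either.

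Among elastic fibre and microfibril genes, Fbn1 encodes fibrillin-1, the main protein of microfibrils (chromosome 2, 125300594 to 125507993, GRCm38, minus strand). On chow Fbn1 lay at 80.7, 86.0 and 60.0 CPM without AQ and at 113, 142 and 129 CPM with it. In HFD-fed mice it lay at 124, 73.6 and 64.0 CPM without AQ and at 39.8, 47.8 and 44.0 CPM with it. Levels with AQ were above all controls on chow and below all controls on the high-fat diet. The log2 fold change was 0.76 ± 0.21 (SE) on chow and -0.92 ± 0.21 on the high-fat diet, and neither alone passed the test (limma adjusted p = 0.0871 and 0.0919). The difference between them was -1.68 ± 0.29 (adjusted p = 0.0232), a call that ended without WT-HFD-AQ replicate 1 or 3 (0.0528 and 0.0789) or WT-NC-AQ replicate 2 or 3 (0.0567 and 0.0514). Between the diets with AQ, Fbn1 fell from 128 ± 14.5 CPM on chow to 43.8 ± 4.0 CPM (SD, n = 3), a log2 change of -1.52 ± 0.21 with a limma adjusted p of 0.00029, and no single library ended that call.

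Mfap5, a small glycoprotein that binds fibrillin, lies on chromosome 6 (122505845 to 122529290, plus strand). On chow it lay at 17.9, 18.3 and 17.5 CPM without AQ and at 19.6, 22.9 and 18 CPM with it, and the groups overlapped. In HFD-fed mice it lay at 27.9, 27.1 and 18.9 CPM without AQ and at 13.0, 16.6 and 11.4 CPM with it, and every treated library was below every control. The effect of AQ differed between the diets by -0.96 ± 0.21 on the log2 scale (limma adjusted p = 0.047), and the call ended without any of 10 of the 12 libraries compared (adjusted p up to 0.149).

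All 11 genes of this group had a lower effect of AQ on the high-fat diet than on chow, with a median difference of -0.45 on the log2 scale, and 2 were called. Without WT-HFD replicate 1 all 11 differences stayed below 0, with a median of -0.39 and 1 call. Eln, the elastin precursor, had the lowest value of all members with AQ on the high-fat diet. It lay at 58.8, 33.6 and 22.2 CPM without AQ and at 15.2, 16 and 14.6 CPM with it, a difference of -1.16 ± 0.34 that missed the threshold (limma adjusted p = 0.162). The control group was spread widely: the value was -0.80 without WT-HFD replicate 1 (adjusted p = 0.508) and -1.49 without WT-HFD replicate 3, where it passed the test (0.0353). Ltbp4, which holds latent TGF-beta in the matrix, was the only gene of the group with a value above 0 with AQ on the high-fat diet (0.07).

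Among the proteoglycans, Vcan encodes versican, a large chondroitin sulphate proteoglycan of loose matrix (chromosome 13, 89655312 to 89742509, minus strand). On the high-fat diet it lay at 21.7, 16 and 13 CPM without AQ and at 7.01, 5.81 and 9.24 CPM with it. Every treated library was below every other library of the series, since the lowest level elsewhere was 12.5 CPM. Vcan fell by 1.09 ± 0.18 on the log2 scale (7.36 ± 1.74 against 16.9 ± 4.41 CPM, limma adjusted p = 0.0267). The call ended without any of 5 of the 6 libraries compared (adjusted p up to 0.144), and with plain library totals (adjusted p = 0.0591). On chow Vcan lay at 16.3, 17.6 and 12.5 CPM without AQ and at 14.9, 19.0 and 15.8 CPM with it, and the groups overlapped. The effect differed between the diets by -1.19 ± 0.25 (adjusted p = 0.0374), and this call ended without any of 9 of the 12 libraries compared (up to 0.0895).

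The other 5 members of the group are small leucine-rich proteoglycans, which coat collagen fibrils, and of all 6 proteoglycans 4 lay above 0 and 2 below in the comparison of the diets with AQ. Without WT-NC-AQ replicate 1, 3 lay above 0 and 3 below. Prelp lay at 55.2, 65.1 and 53.9 CPM on chow and at 73.4, 79.3 and 72.9 CPM on chow with AQ. On the high-fat diet Prelp lay at 73.0, 73.1 and 73.7 CPM without AQ and at 57.5, 53.5 and 51.3 CPM with it. The groups did not overlap in either diet, in opposite directions, and the difference of -0.80 ± 0.19 missed the threshold (limma adjusted p = 0.0632), which it passed in a fit of only the groups compared (0.0131). Lum, lumican, was higher on the high-fat diet with AQ than on chow with AQ (71.8 ± 8.85 against 52.2 ± 11.7 CPM, log2 change 0.47 ± 0.14, adjusted p = 0.0447), though the groups overlapped. Dcn, decorin, ranged from 542 to 872 CPM over all libraries, and its value with AQ on the high-fat diet was -0.03. Ogn was the single member lower with AQ on chow without overlap, at 69.2, 70.1 and 83.5 CPM against 92.4, 103 and 92.7 CPM (8.97% of all genes were lower without overlap, adjusted p = 0.219).

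Among adhesive and matricellular glycoproteins, Fn1 encodes fibronectin, which links cells to the matrix through integrins (chromosome 1, 71585520 to 71653200, minus strand). On chow Fn1 lay at 114, 123 and 122 CPM without AQ and at 151, 175 and 165 CPM with it. Among HFD-fed mice it lay at 162, 133 and 145 CPM without AQ and at 97.8, 102 and 103 CPM with it. The groups did not overlap in either diet. The effect of AQ differed between the diets by -0.98 ± 0.18 (limma adjusted p = 0.0253), a call that ended without WT-HFD replicate 1 (0.0543), WT-HFD-AQ replicate 1 or 3 (0.0528 and 0.0789) or WT-NC-AQ replicate 2 or 3 (0.0607 and 0.0514). Fn1 was lower on the high-fat diet with AQ than on chow with AQ by -0.69 ± 0.12 (adjusted p = 0.00221).

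All 7 genes of this group had values below 0 with AQ on the high-fat diet, with a median of -0.53, and none was called. Without WT-HFD replicate 1, 6 of 7 were below 0 with a median of -0.39, and Tnc lay at 0.06. Thbs1, thrombospondin-1, an activator of latent TGF-beta, lay at 51.7, 47.9 and 18.8 CPM on the high-fat diet and at 21.7, 13.4 and 13.4 CPM with AQ, and the groups overlapped. Its difference of -1.14 ± 0.35 (adjusted p = 0.175) was -0.89 without WT-HFD replicate 1 (0.514) and -1.60 without WT-HFD replicate 3 (0.0192). Against chow with AQ, where it lay at 40.5, 33.3 and 34.3 CPM, Thbs1 fell by 1.14 ± 0.35 on the log2 scale (limma adjusted p = 0.0433). Postn, periostin, lay at 28.7, 36.4 and 17 CPM on the high-fat diet and at 9.62, 12.7 and 16.5 CPM with AQ, without overlap but short of the threshold (adjusted p = 0.201). Sparc, a collagen-binding matricellular protein, ranged from 330 to 939 CPM over all libraries, with its highest level in HFD-WT replicate 1.

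Basement membrane genes were the group with both members called for AQ on chow. Hspg2 encodes perlecan, a large heparan sulphate proteoglycan (chromosome 4, 137468769 to 137570630, plus strand). On chow it lay at 319, 326 and 289 CPM without AQ and at 410, 493 and 451 CPM with it. Hspg2 rose by 0.53 ± 0.10 on the log2 scale (452 ± 41.6 against 311 ± 19.9 CPM, limma adjusted p = 0.0216), with no overlap. Among HFD-fed mice it lay at 398, 345 and 382 CPM without AQ and at 322, 385 and 306 CPM with it, and the groups overlapped. The difference between the diets was -0.69 ± 0.14 (adjusted p = 0.0349).

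Lamb2 encodes the laminin beta-2 chain, known for its place at the neuromuscular junction (chromosome 9, 108479736 to 108490530, plus strand). On chow it lay at 137, 139 and 140 CPM without AQ and at 182, 209 and 186 CPM with it, a rise of 0.47 ± 0.09 (limma adjusted p = 0.0286). Under HFD it lay at 135, 176 and 164 CPM without AQ and at 142, 152 and 121 CPM with it, with overlap, and the effects differed between the diets by -0.66 ± 0.13 (adjusted p = 0.0349). The calls of Hspg2 and Lamb2 on chow ended when each library's trend with GC content was removed (adjusted p = 0.0703 and 0.0994) and with plain library totals (0.0669 and 0.0747). Without single libraries their adjusted p on chow reached 0.0904 (WT-NC-AQ replicate 2) and 0.114 (WT-NC-AQ replicate 2), and that of the difference between diets 0.107 and 0.0951 (WT-HFD-AQ replicate 3 for both). Removing the GC trend also ended their calls of that difference (0.0906 and 0.0904) and that of Mfap5 (0.0661). All 8 genes of the group lay higher with AQ on chow, with a median of 0.34, and 7 of 8 lay lower with AQ on the high-fat diet, with a median of -0.19. Without WT-NC-AQ replicate 1 the median on chow was 0.38, with all 8 higher. Without WT-HFD replicate 1 the median on the high-fat diet was -0.12, with 7 of 8 lower. Lama2, whose loss causes congenital muscular dystrophy, lay at 55.3 to 76.5 CPM on chow and 80.8 to 90.4 CPM on chow with AQ.

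Genes of cross-linking and collagen processing had the lowest median of the 7 groups with AQ on the high-fat diet, -0.58, with all 6 below 0 and none called. Without WT-HFD replicate 1 that median was -0.44, again with all 6 below 0. Loxl1 encodes a lysyl oxidase that acts on elastin (chromosome 9, 58287738 to 58313186, minus strand). On chow it lay at 20.7, 19.2 and 18.3 CPM without AQ and at 29.2, 35.5 and 27.1 CPM with it. Under HFD it lay at 27.5, 19.1 and 21.8 CPM without AQ and at 14.3, 14.9 and 13.7 CPM with it. The groups did not overlap in either diet, in opposite directions. The effects differed by -1.25 ± 0.21 (limma adjusted p = 0.0223), a call that ended without WT-HFD-AQ replicate 3 (0.0789) or WT-NC-AQ replicate 2 (0.0556). Between the diets with AQ, Loxl1 fell by 1.04 ± 0.15 (adjusted p = 0.000455), which no single library ended.

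Loxl2, another lysyl oxidase, lay at 18.8, 21.7 and 23.4 CPM on chow with AQ and at 8.60, 9.66 and 14.7 CPM on the high-fat diet with AQ, a fall of 0.92 ± 0.22 (limma adjusted p = 0.0143). Pcolce, which speeds removal of the procollagen C-propeptide, lay at 51.4, 64.3 and 59.3 CPM against 35.4, 43.6 and 38.6 CPM in the same groups and fell by 0.56 ± 0.15 (adjusted p = 0.0237). Both groups of libraries were separate for each gene. Lox, the founding member of the family, lay at 47.9, 29.0 and 17.3 CPM on the high-fat diet and at 15, 11.7 and 15.6 CPM with AQ. Its highest control was WT-HFD replicate 1, and its value of -0.995 ± 0.297 missed the threshold (limma adjusted p = 0.171). It was -0.64 without that library (0.547) and -1.35 without WT-HFD replicate 3 (0.0225).

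Of the 7 proteases and inhibitors, 1 was called higher and 1 lower between the diets with AQ. There 6 of 7 lay below 0, with a median of -0.28. Mmp14 encodes a membrane-bound metalloproteinase that activates the product of Mmp2 (chromosome 14, 54431612 to 54445364, plus strand). On chow it lay at 17.3, 14.3 and 12.4 CPM without AQ and at 22.0, 23.1 and 24.2 CPM with it, and on the high-fat diet at 21.0, 14.1 and 15 CPM without AQ and 11.8, 10.6 and 12.7 CPM with it. Groups did not overlap in either diet, in opposite directions, but the difference of -1.10 ± 0.28 missed the threshold (limma adjusted p = 0.0734), which it passed in a fit of only the groups compared (0.0361). Between the diets with AQ, Mmp14 fell by 0.93 ± 0.20 (adjusted p = 0.00617).

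Timp3, an inhibitor that stays bound to the matrix, was the member with the highest value between the diets with AQ (chromosome 10, 86300372 to 86349506, plus strand). It lay at 249, 204 and 216 CPM on chow with AQ and at 307, 335 and 348 CPM on the high-fat diet with AQ, and rose by 0.57 ± 0.11 on the log2 scale (limma adjusted p = 0.0039). Without AQ it lay at 254, 359 and 281 CPM on the high-fat diet, and the difference in the effect of AQ between the diets was 0.33 ± 0.16 (adjusted p = 0.345). Timp2 ranged from 149 to 246 CPM over all libraries. Timp1 was the lowest member, with 0.0924 CPM in WT-HFD-AQ replicate 3, which is 1 read, and no fold change is given for it. Adamts1, a protease that cuts versican, lay at 112, 107 and 49.6 CPM on the high-fat diet and at 44.0, 37.6 and 39.0 CPM with AQ, without overlap and short of the threshold (adjusted p = 0.137). Its difference of -1.05 ± 0.28 was -0.85 without WT-HFD replicate 1 (0.437) and -1.42 without WT-HFD replicate 3 (0.0125).

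Tendon-rich genes had no member called in any comparison. Thbs4, thrombospondin-4, had the smallest p of the 4 for the difference between diets, which was -0.40 ± 0.25 (limma adjusted p = 0.485). It lay at 130, 201 and 128 CPM on chow and at 147, 178 and 127 CPM with AQ, and at 267, 210 and 171 CPM on the high-fat diet and 160, 168 and 154 CPM with AQ. Tnmd, tenomodulin, Comp and Fmod lay below 0 with AQ on the high-fat diet, and the median of the group was -0.29. Without WT-HFD replicate 1 that median was -0.03, with 3 of 4 below 0 and Fmod at 0.06. Without WT-HFD replicate 3 it was -0.41, with all 4 below 0.

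**Figure D3:**
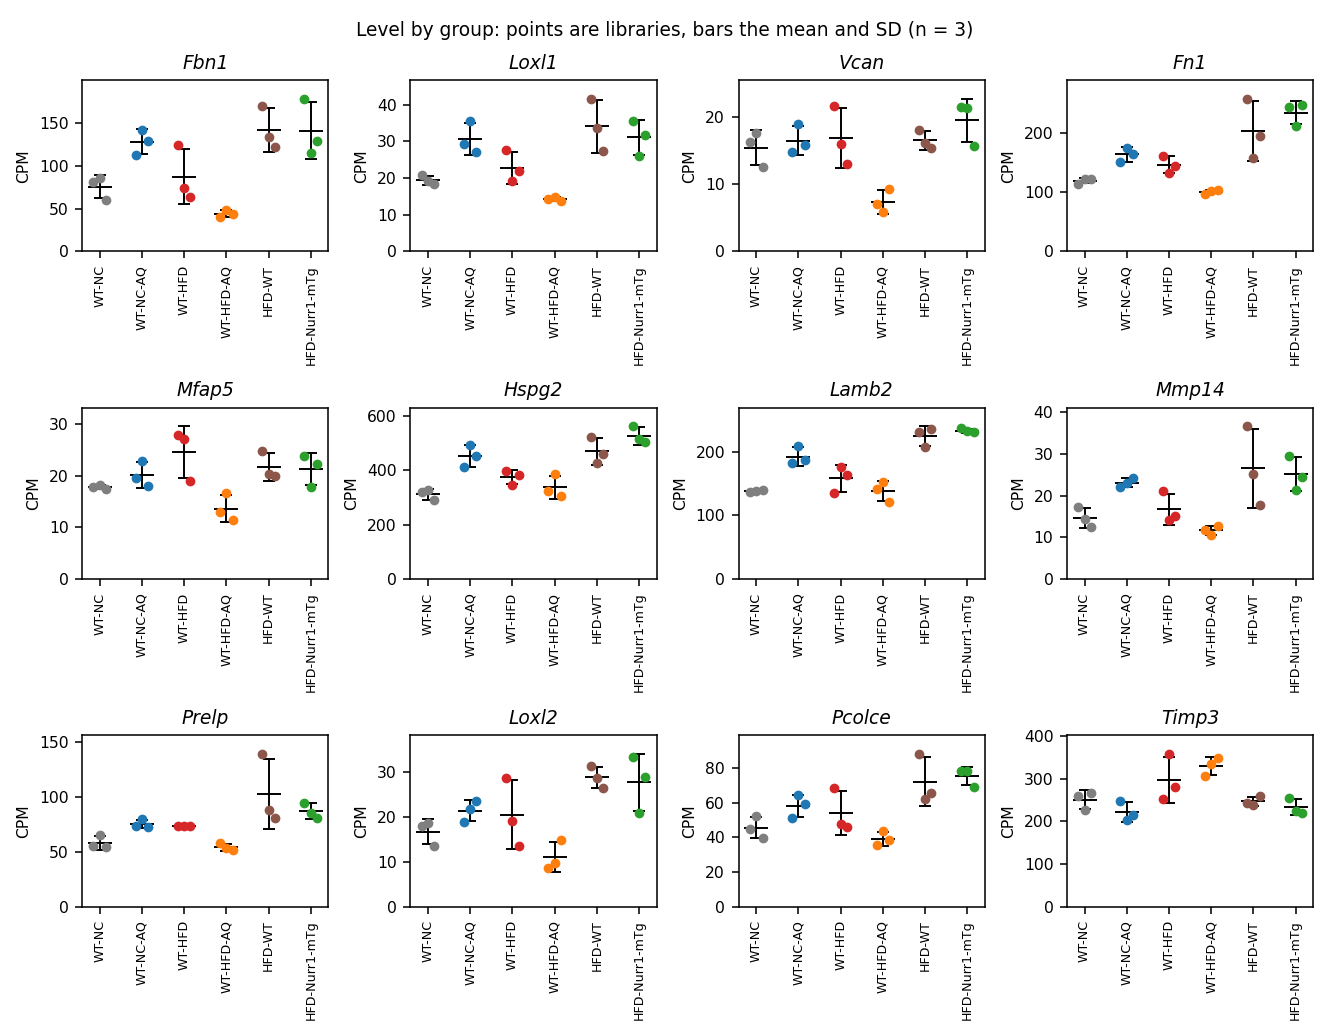
Level in CPM of 12 members in each of the 6 groups, with points for single libraries and bars that give the mean and SD over 3. For Fbn1, Loxl1 and Fn1 the WT-NC-AQ points lie above the WT-NC points and the WT-HFD-AQ points below the WT-HFD points, and Timp3 is higher in WT-HFD-AQ than in WT-NC-AQ.

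The high-fat diet without AQ was compared with chow in wild-type mice. Of the 49 members, 47 lay higher on the high-fat diet, against 49.2% of all genes, with a median log2 fold change of 0.23, and groups did not overlap for 16 higher members (6.32% of all genes) and for no lower one (6.10%). Without WT-HFD replicate 1, 38 lay higher with a median of 0.16, and without WT-HFD replicate 3 all 49 did, with a median of 0.29. None of the 49 passed limma's threshold (0.0479% of all genes were called), 17 had an unadjusted p under 0.05 (9.53% of all genes), and edgeR and DESeq2 called 0 members. Postn had the smallest p. It lay at 14.2, 12.1 and 7.32 CPM on chow and at 28.7, 36.4 and 17 CPM on the high-fat diet, without overlap, and its value of 1.20 ± 0.32 had a limma adjusted p of 0.225.

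The Nurr1 transgene was compared with its own controls, both on the high-fat diet. limma called 0 of 49 members (0.599% of all genes were called), 5 had an unadjusted p under 0.05 (8.95% of all genes), and edgeR and DESeq2 called 0. The median log2 fold change of the members was -0.03, with 29 of 49 below 0 (50.3% of all genes), and it became 0.11 without HFD-WT replicate 1, with 13 below 0, and -0.11 without HFD-Nurr1-mTg replicate 1, with 34 below 0. Comp, cartilage oligomeric matrix protein, lay at 46.2, 23.3 and 21.0 CPM in controls and at 19.9, 18.4 and 13.2 CPM in transgenic muscle, without overlap (7.35% of all genes were lower without overlap). Its difference of -0.71 ± 0.28 had an adjusted p of 0.398 by limma and was -0.37 without HFD-WT replicate 1. Fmod, fibromodulin, which binds collagen in tendon, lay at 592, 340 and 320 CPM in controls and at 294, 290 and 252 CPM in transgenic muscle, also without overlap (-0.53 ± 0.20, limma adjusted p = 0.379), and its difference was -0.25 without HFD-WT replicate 1. Tnxb, tenascin-X, was the one member higher without overlap (6.99% of all genes), at 146, 144 and 128 CPM against 122, 106 and 122 CPM (0.25 ± 0.10, adjusted p = 0.390). All 8 basement membrane genes lay above 0, with values of 0.04 to 0.17, and 5 of 8 did without HFD-Nurr1-mTg replicate 1. All 4 tendon-rich genes lay below 0, with a median of -0.54, which was -0.24 without HFD-WT replicate 1, again with all 4 below 0. Beside this, 8 tendon cell markers summed to 656 to 1056 CPM in controls and 601 to 621 CPM in transgenic muscle. Of these markers 3 are members, and Fmod and Thbs4 made up most of each sum (592 and 350 of 1056 CPM in HFD-WT replicate 1). The sums thus mostly restate member values, and the part of tendon cells in the result was not tested.

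**Figure D4:**
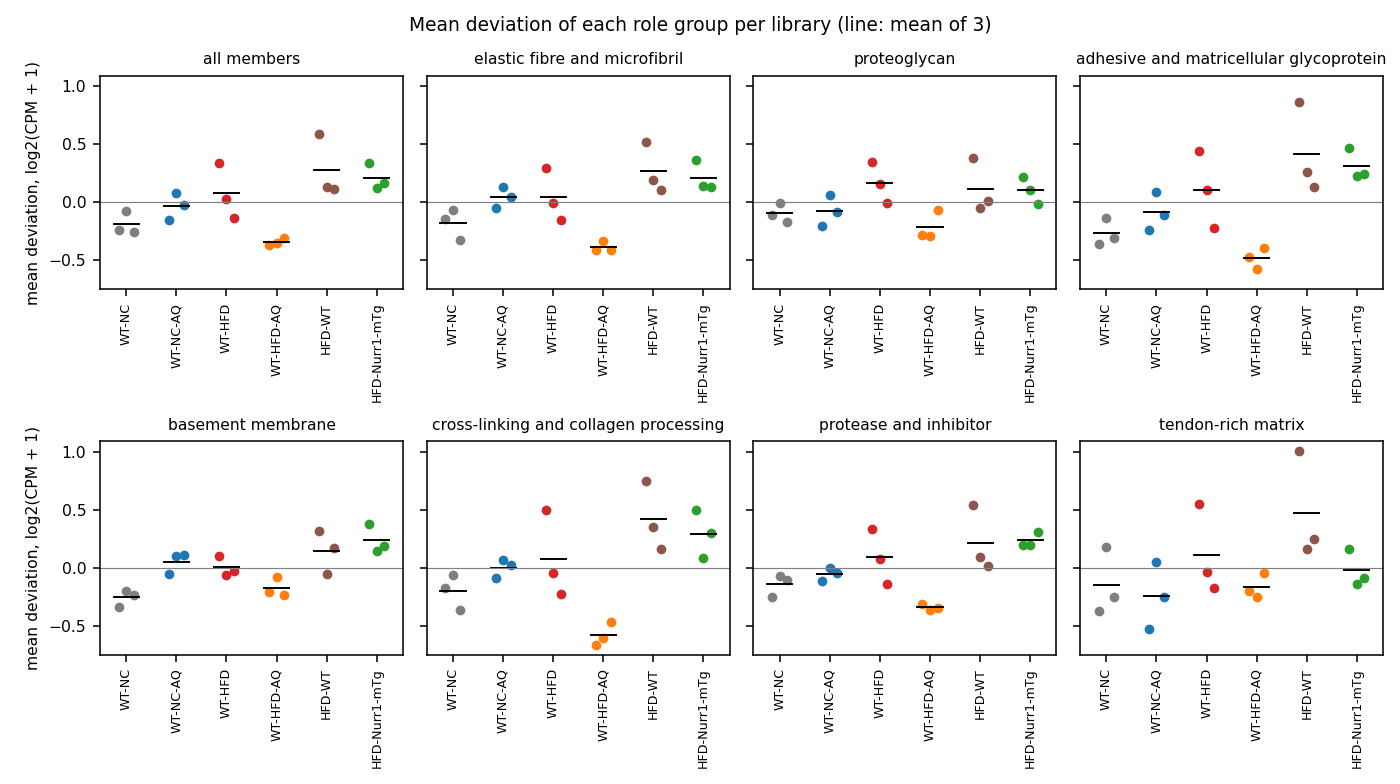
Mean deviation of each of the 7 role groups in each library, as log2(CPM + 1) relative to each gene's mean over all libraries, with a line at the mean of 3 libraries per group. In each role panel a point is a library, and HFD-WT replicate 1 has the highest mean over all members, 0.59.

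Groups of the AQ experiment and of the transgene experiment were not compared with each other, apart from a count for the 2 wild-type groups on the high-fat diet without AQ. HFD-WT was higher than WT-HFD without overlap for 6 of 49 members, 12.2%, against 11.8% of all genes. It was lower for 2, 4.08%, against 11.3%. The shares of the members were thus near or below those of all genes. Of these members, Lamb2 was at 225 ± 15.5 CPM in HFD-WT and at 158 ± 21.3 CPM in WT-HFD, and Dcn at 649 ± 103 against 798 ± 63.8 CPM. Hspg2 was at 469 ± 49.3 against 375 ± 27.1 CPM. Overlap does not measure the size of a difference. With overlap, Fbn1 was at 142 ± 25.4 against 87.1 ± 32.1 CPM, Loxl1 at 34.2 ± 7.22 against 22.8 ± 4.31 CPM and Fn1 at 204 ± 50.7 against 147 ± 14.2 CPM. Vcan was at 16.6 ± 1.44 against 16.9 ± 4.41 CPM and Mfap5 at 21.7 ± 2.71 against 24.6 ± 4.97 CPM.

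Compared per length of the transcript, Dcn had the highest level of the members, at 408 CPM per kilobase, then Sparc at 197 and Fmod at 89.2, and Timp1 the lowest at 1.11.

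RefSeq promoter windows (GRCm38.p6) were matched for 33 of the 49 members, and upstream bases of Vcan and Hspg2 are shown. Both were called, in the same direction, for the difference in the effect of AQ between the diets. Their windows hold no or few bases of annotated exons. Capitals mark GC boxes, searched as GGGCGG on both strands. The Vcan window is chr13:89742513-89742762 on the minus strand and the Hspg2 window chr4:137468553-137468768 on the plus strand, each read 5′ to 3′.
Vcan: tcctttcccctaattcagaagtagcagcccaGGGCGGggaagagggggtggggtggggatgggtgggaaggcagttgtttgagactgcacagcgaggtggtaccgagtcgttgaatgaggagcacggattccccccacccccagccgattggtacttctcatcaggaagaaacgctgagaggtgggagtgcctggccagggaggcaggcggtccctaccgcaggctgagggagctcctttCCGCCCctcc
Hspg2: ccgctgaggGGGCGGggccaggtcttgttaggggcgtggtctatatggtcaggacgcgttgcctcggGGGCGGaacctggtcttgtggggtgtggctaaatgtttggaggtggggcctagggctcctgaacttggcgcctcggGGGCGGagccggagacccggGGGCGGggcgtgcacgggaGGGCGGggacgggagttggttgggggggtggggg
The Vcan stretch of 250 bases held 2 GC boxes and the Hspg2 stretch of 216 bases 5. For Hspg2 the 34 bases nearest the start were left out because of annotated exons. The shares that follow are over upstream windows of 250 bases. GC boxes were found in 21 of 33 member windows, 63.6%, against 32.9% of 27025 RefSeq windows, 1 per gene symbol. Those windows were not limited to the 12524 genes tested in muscle, and a share over the tested genes was not computed. The NURR1 monomer site AAAGGTCA was found in 1 member window, that of Tnxb, against 1.31% of all windows. The TATA box TATAAA was found in 12.1% of member windows and 13.0% of all, TGANTCA in 6.06% and 6.87%, and CAGAC in 42.4% and 42.1%. Lamb2, also called lower for the difference between the diets, had no GC box in its window. A match describes the letters in the window only, and a link between GC boxes and the effect of AQ was not tested.

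Other genes of the matrix were counted from lists. Of 15 collagen chains, 8 had a lower effect of AQ on the high-fat diet than on chow past the threshold and none a higher one, where 0.711% of all genes were called and 0.583% called lower, and the median difference was -1.23 on the log2 scale. Col5a3 had a difference of -1.78 ± 0.33 (limma adjusted p = 0.0253), Col4a2 one of -1.39 ± 0.26 (0.0267), and Col15a1 rose with AQ on chow by 0.91 ± 0.18 (0.0286). Of 32 further matrix glycoproteins and proteoglycans, 2 were called for the difference between diets, both lower, Lamc3 and Cilp, and 11 for the diets with AQ, 4 higher and 7 lower, where 10.6% of all genes were called, 4.89% higher and 5.68% lower. Of 29 further proteases and inhibitors, 6 were called with AQ between the diets, all lower, and none for the difference of effects. Of 21 genes of the TGF-beta pathway, none was called in any comparison other than diet with AQ, where Ltbp3, Smad3 and Ski fell.

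Markers of other cell types were read beside these results, and no marker had a median of 0. The summed level of 10 fibroblast markers was 1972 to 2239 CPM on the high-fat diet and 1697 to 1862 CPM with AQ, without overlap, and 9 of 10 lay below 0, with none called. On chow it was 1664 to 2201 CPM without AQ and 1973 to 2277 CPM with it. Markers of skeletal muscle fibres also summed lower with AQ on the high-fat diet, without overlap. They were at 115503 to 123895 CPM against 124327 to 141277 CPM, with 6 of 8 below 0. In that comparison 5 of 6 Schwann cell markers and 5 of 8 smooth muscle and pericyte markers lay below 0, with overlapping sums. The 8 adipocyte markers summed to 393 to 458 CPM on the high-fat diet and 285 to 370 CPM with AQ. On chow they summed to 213 to 347 CPM without AQ and 252 to 302 CPM with it. The 6 leukocyte markers measured summed to 117 to 124 CPM on chow and 160 to 231 CPM with AQ, and 1 of them, H2-Aa, rose (log2 change 0.72, limma adjusted p = 0.043). On the high-fat diet the leukocyte markers summed to 123 to 166 CPM without AQ and 120 to 132 CPM with it, with overlap. There 5 of 6 lay below 0. The 8 endothelial markers summed to 339 to 441 CPM on chow and 443 to 528 CPM with AQ, where Vwf (0.45, 0.0251) and Cldn5 (0.93, 0.0451) rose. Under HFD they summed to 428 to 449 CPM without AQ and 468 to 499 CPM with it, also higher without overlap, and Erg rose (0.56, 0.0267). Csf1r, a leukocyte marker, fell between the diets with AQ (-0.54, 0.0361). The difference in the effect of AQ between the diets was below 0 for 8 of 8 adipocyte, 6 of 6 leukocyte and 9 of 10 fibroblast markers. Their medians were -1.55, -0.76 and -0.37, against -0.50 for the members, and none of these markers was called. That difference was below 0 for 6 of 8 endothelial markers, 4 of 8 tendon cell markers and 48.7% of all genes. The part of these cell types in the results was not tested. In bulk muscle, fewer cells of a type and less RNA per cell cannot be told apart.

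The calls of AQ on the high-fat diet depend on single libraries: without WT-HFD replicate 3, 9 members and 224 genes of all were called, and without WT-HFD replicate 1 no member was called. Of the 14 calls between the diets with AQ, those of Fbn1, Loxl1, Vcan, Fn1, Lamb2, Mmp14 and Timp3 held without any single library, and the other 7 ended without at least 1 of the WT-HFD-AQ libraries, 6 of them (all but Hspg2) also without at least 1 of the WT-NC-AQ libraries (adjusted p up to 0.215, for Lum without WT-NC-AQ replicate 1). Exons of 16 members share bases with a gene on the opposite strand, among them Fbn1, Fn1, Prelp, Loxl2, Pcolce, Thbs1 and Timp3, and without a stated use of strand their reads cannot be told apart. Pcolce also overlaps Fbxo24, and Loxl2 the microRNA gene Mir6950, on the same strand.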

How the data were processed

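RNA of 18 libraries, 3 in each of 6 groups, was measured by sequencing. TopHat2 2.0.12 and edgeR, with builds GRCm38 and mm10, are named in the submitters' processing notes. No source used here gives the counting tool, annotation, strand or gene filter. The deposited table holds CPM values scaled by library, recorded as a signal because the columns do not share one sum. Dividing each column by its own step gave whole reads for all values (100% within 1e-06 reads), and TMM scaling recomputed from those reads matched the deposited scale. All value columns were used (0 unused).

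Groups were compared with limma 3.58.1 in R 4.3.3 (trend) on log2(CPM + 1), two-sided, for genes with at least 1 CPM in 3 libraries, all 6 groups in 1 fit with 12 residual degrees of freedom, adjusted by Benjamini-Hochberg over 12524 genes. Fold changes on that scale understate low genes. The members and lists were chosen with earlier results of these data known. Members called in any comparison, at most 12 by smallest adjusted p, are given in full, with the member of each role group with the smallest p for AQ by diet; other members are given by ranges, counts or values. Positions come from GENCODE M21. edgeR 4.0.16 and DESeq2 1.42.0 on the recovered reads, other pseudocounts (0.25 and 4), filters, plain library totals, a fit of only the groups compared, a replicate block, GC trend removal (loess, span 0.3) and leaving out each library were tried. Libraries of a group differed by more than sampling noise (chi-square per degree of freedom at least 4.22). The procedures were tested on simulated data. A result for 1 further gene of the lists is not reported here.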

Additional observations from a re-analysis of the deposited data

Results flagged for a closer look

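The effect of AQ differed between the diets for 7 of the 49 genes by a test of the difference itself (limma, adjusted over all genes tested). The effect on the high-fat diet minus that on chow was -1.68 for Fbn1, -1.25 for Loxl1, -1.19 for Vcan, -0.98 for Fn1, -0.96 for Mfap5, -0.69 for Hspg2 and -0.66 for Lamb2, on the log2 scale. For Fbn1, Loxl1 and Fn1 the libraries with and without AQ did not overlap in either diet, in opposite directions. For Vcan and Mfap5 they did not overlap on the high-fat diet and overlapped on chow, and for Hspg2 and Lamb2 they did not overlap on chow and overlapped on the high-fat diet. Each of the 7 calls ended without at least 1 library.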

How the results depend on the processing

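Counts of members and of all genes called depended on the processing, and the cause was not tested. For AQ on the high-fat diet (1 member, 6 genes), plain library totals gave 0 members, DESeq2 7 and 143 genes, a fit of only the groups compared 0 and 1, the replicate block 3 and 34, and leaving out HFD-WT replicate 1, chosen after seeing the data, 4 and 29. For AQ on chow (2 and 139), plain totals gave 0 and 43, DESeq2 6 and 280, only the groups compared 0 and 12, GC trend removal 0 and 19, the replicate block 49 genes, and leaving out HFD-WT replicate 1 gave 5 members and 172 genes. For AQ by diet (7 and 89), plain totals gave 2 and 32, DESeq2 13 and 229, GC trend removal 4 and 17, only the groups compared 5 and 62 (3 of the 7 members kept), the replicate block 8 and 99 (6 kept, without Vcan at 0.0505, with Prelp and Mmp14 added), and leaving out HFD-WT replicate 1 155 genes. For the high-fat diet without AQ (0 and 6), plain totals gave 3 genes, DESeq2 47, only the groups compared 2 and leaving out HFD-WT replicate 1 17. For the diets with AQ (14 and 1324), plain totals gave 9 members and leaving out HFD-WT replicate 1 gave 15 and 1374, and for the transgene (0 and 75) DESeq2 gave 171 genes.

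Leaving out in turn each library of the groups compared gave 0 to 9 members and 0 to 224 genes for AQ on the high-fat diet, 0 to 2 and 13 to 113 for AQ on chow, 0 to 8 and 3 to 103 for AQ by diet, 0 and 0 to 40 for the high-fat diet without AQ, 8 to 10 and 573 to 1130 for the diets with AQ, and 0 and 43 to 72 for the transgene. The medians of the members ranged from -0.46 to -0.25, 0.08 to 0.20, -0.57 to -0.39, 0.16 to 0.30, -0.29 to -0.23 and -0.11 to 0.11 in the same order. Of 240 values of called members under the other 10 alternatives, 206 kept their call and 34 lost it, and of 210 values without a library 85 lost it, with 0 reversed. Replicate numbers were not used as pairs in the main fit. The 21 same-numbered pairs correlated between -0.21 and 0.31, and differently numbered pairs between -0.32 and 0.29. Of 18 libraries, 8 correlated best with their own number. Pairing was thus neither shown nor excluded. Depth limits Timp1 most, at 1 read in its lowest library.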
